A study of Mus musculus with 27 samples.

Results

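Expression of 10 genes of the Hippo signalling output was followed through the differentiation of mouse embryonic stem cells (ESCs) to blood, with and without a dominant negative FOS (dnFOS) that blocks the AP-1 family of transcription factors. The 10 genes were Tead1, Tead2, Tead3 and Tead4, the coactivator genes Yap1 and Wwtr1, and the target genes Ccn1, Ccn2, Amotl2 and Ankrd1. They were taken by name, by a rule that uses no measured value but with earlier results of these data known, from 37208 genes or transcripts on the array. Probes were matched through RefSeq accessions, under which Ccn1 carries its older name Cyr61 and Ccn2 its older name Ctgf. All 10 had a probe.

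All arrays came from a mouse ESC line made from A2lox cells, in which a Flag-tagged dnFOS cassette was placed at the Hprt locus under doxycycline (DOX) control, so that the untreated cells carried the cassette too. Clones were picked after selection, and no DOX-treated cells without the cassette were part of the design. Embryoid bodies were grown for 3.75 days and FLK1+ cells, the mesodermal precursors of blood and vessel cells, were isolated with magnetic beads. The 13 groups were untreated FLK1+ cells at isolation, and cells with and without 1 µg/ml DOX from each of 6 later populations. FLK1+ 5h cells had been cultured for 5 h with DOX for as long, and d1 BC cells were a whole blast culture of 24 h with 1 day of DOX. The other populations, with 2 days of DOX, were SM (smooth muscle) cells, HE1 hemogenic endothelium (KIT+TIE2+CD41-), HE2 hemogenic endothelium (KIT+TIE2+CD41+) and HP hematopoietic progenitors (KIT+TIE2-CD41+). Of the 13 groups, 12 had 2 arrays and untreated SM had 3. Nothing in the labels says that these came from separate cultures, so p-values measure the spread between these arrays, which may be technical.

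TEAD1 to TEAD4 are DNA-binding proteins that activate genes only with a partner. The main partners are YAP, from Yap1, and TAZ, from Wwtr1, which the kinases of the Hippo pathway keep out of the nucleus. Spreading, mechanical tension and serum factors relieve this and let YAP and TAZ switch on genes such as Ccn1 and Ccn2, which encode secreted matrix proteins, Ankrd1, which encodes an ankyrin repeat protein of the muscle sarcomere and nucleus, and Amotl2, which encodes a junction protein that holds YAP back. TEAD factors and AP-1 are known to share many enhancers, and the arrays were made to ask what the blood and vascular programmes become when AP-1 is blocked.

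The sequence just before the start site is shown for the 3 target genes with an entry in a RefSeq promoter table (GRCm38.p6), since the results turn on the targets. Each line gives the 250 bases upstream of the start on the strand of the gene, with GGAATG or its reverse complement CATTCC, the core bound by TEAD proteins, in capitals.
Ankrd1 (chr19:36119845-36120094, minus strand): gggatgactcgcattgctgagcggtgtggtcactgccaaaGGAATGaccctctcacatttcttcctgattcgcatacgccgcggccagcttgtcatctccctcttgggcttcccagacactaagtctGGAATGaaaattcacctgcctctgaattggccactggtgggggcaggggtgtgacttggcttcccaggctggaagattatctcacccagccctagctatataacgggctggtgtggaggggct
Ccn1 (chr3:145649986-145650235, minus strand): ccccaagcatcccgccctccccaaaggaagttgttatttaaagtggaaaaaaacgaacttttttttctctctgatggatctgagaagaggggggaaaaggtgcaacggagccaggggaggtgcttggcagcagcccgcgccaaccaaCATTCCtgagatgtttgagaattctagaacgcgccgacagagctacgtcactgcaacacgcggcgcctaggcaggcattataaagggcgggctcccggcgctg
Amotl2 (chr9:102717554-102717803, plus strand): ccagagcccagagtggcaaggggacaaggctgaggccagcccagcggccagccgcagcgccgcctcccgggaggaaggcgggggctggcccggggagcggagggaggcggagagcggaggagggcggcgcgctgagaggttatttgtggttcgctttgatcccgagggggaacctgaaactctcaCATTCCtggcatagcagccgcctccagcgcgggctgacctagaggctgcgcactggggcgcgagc
The core lay 210 and 123 bases upstream of the start in Ankrd1, 103 in Ccn1 and 65 in Amotl2. Across the family, 7 of the 10 genes had an entry, with 10 windows, and Ccn2, Tead1 and Tead4 had none. The core was in 8 of these 10 windows, in 6 of the genes, and in 12.6% of all 32851 windows of the same length. The AP-1 letters TGACTCA or TGAGTCA were in 0 of the 10 windows against 4.46% of all windows, and the CArG box of serum response factor in 0 against 1.47%. The 2 windows of Wwtr1 overlap and share a match, and 2 of the 3 windows of Tead3 overlap. These matches describe letters on both strands and were not set against binding data.

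Levels are on a log2 scale on which 0 is the 75th percentile of the array's signals, and a gene was called when limma's adjusted p was under 0.05 and the change at least 2-fold. The 75th percentile ran from 78.8 to 732 intensity units over the 27 arrays, and 48.0% to 89.7% of probes were well above background. Arrays of a group correlated at 0.917 to 0.977. The arrays lay on 5 slides, and apart from replicate 1 of FLK1+ 5h each DOX array shared a slide with an untreated array of its population. Both FLK1+ arrays taken at isolation lay on the same slide, so every comparison with them rests on that slide. No HE1 array shared a slide or a scan day with them, so differences between HE1 and FLK1+ cells include any between slides. Hprt, next to the DOX-driven cassette, was higher on every DOX array than on every untreated array in all 6 populations, by 2.73- to 12.4-fold. The labels were checked against markers. All 5 smooth muscle genes were well above background on every untreated SM array, but also on every d1 BC array. All 6 endothelial genes were so in HE1 and HE2, but also in FLK1+ and HP, so this detection does not tell these populations apart. The summed level of 5 hematopoietic genes was higher on every HE2 and HP array than on any other. Replicate 2 of SM stood apart: the summed level of the endothelial genes (array 75th percentile = 1) was 63.8 there and 65.5 with DOX, against at most 13.3 in untreated replicates 1 and 3 and 65.6 to 76.9 in untreated HE2.

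In untreated cells Yap1, the main coactivator gene, was high up to HE1 and lower in the CD41+ populations. Among the 7 untreated populations, limma's F test passed for 9 of the 10 genes, against 19.3% of all 27452 genes tested, and Wwtr1 missed it (adjusted p = 0.0790). Yap1 read 5.46 and 5.31 in FLK1+ cells, 5.22 and 4.71 in FLK1+ 5h, 5.38 and 5.26 in d1 BC, 4.99, 5.13 and 4.47 in SM, 4.75 and 4.65 in HE1, 1.75 and 2.94 in HE2, and 1.23 and 2.38 in HP. Every array up to HE1 lay above every HE2 and HP array. From HE1 to HE2 Yap1 fell by 2.35 on the log2 scale (SE 0.55, limma adjusted p = 0.0235), against 2.09% of genes called lower in that step. This was the only pair of neighbours in the order of the untreated means, over all 10 genes, with an adjusted p under 0.05. Without HE2 replicate 1 it was -1.75 with limma adjusted p = 0.345, and leaving out either HE1 array also ended the call. It was kept in 10 of 15 other settings and lost with normexp, with median scaling, with no filter on dim probes, with array weights and with only the groups compared (limma adjusted p up to 0.403).

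**Figure D1:**
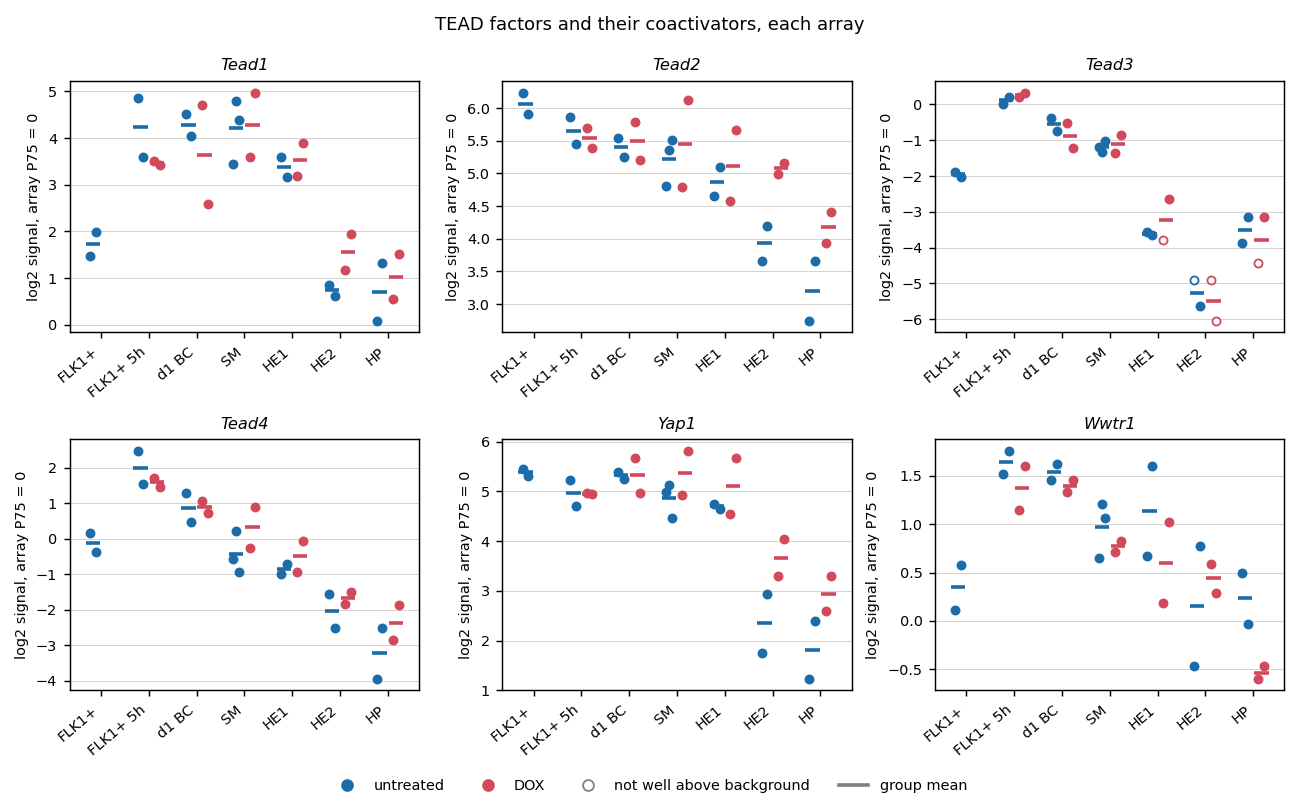
Log2 signal of the 4 TEAD genes and of Yap1 and Wwtr1 on each array (array 75th percentile = 0), by population, untreated in blue and DOX in red, with group means as lines and open circles for probes not well above background. Yap1 and Tead1 lie lower in HE2 than in HE1, and untreated Tead3 and Tead4 are highest in FLK1+ 5h.

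The 4 TEAD genes did not share an order. Tead2, which is expressed from the earliest stages of the embryo, was highest in FLK1+ cells at 6.23 and 5.90 and lowest in HP at 2.74 and 3.67, with the populations between them in a slope in which 4 of 6 neighbouring pairs overlapped. Tead1 read 1.47 and 1.99 in FLK1+ cells, 4.86 and 3.60 in FLK1+ 5h, 4.51 and 4.04 in d1 BC, 3.44, 4.80 and 4.39 in SM, 3.59 and 3.17 in HE1, 0.86 and 0.63 in HE2, and 0.09 and 1.33 in HP. The cultured and HE1 arrays all lay above the FLK1+, HE2 and HP arrays. Tead1 was 2.48 higher in SM than in FLK1+ cells (SE 0.64, limma adjusted p = 0.0189), while its difference of 2.50 between FLK1+ 5h and FLK1+ was not called (limma adjusted p = 0.0608). The SM call was lost without either FLK1+ array (limma adjusted p up to 0.197). The further probes of Tead1 gave 2.16 and 2.34 for SM against FLK1+.

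Tead3, known from the placenta, and Tead4, which specifies the trophectoderm of the early embryo, both had their highest untreated mean in FLK1+ 5h. Tead3 read -1.88 and -2.03 in FLK1+ cells, 0.02 and 0.20 in FLK1+ 5h, -0.37 and -0.74 in d1 BC, -1.19, -1.33 and -1.03 in SM, -3.57 and -3.66 in HE1, -4.91 and -5.64 in HE2, and -3.88 and -3.15 in HP, with the first HE2 array not well above background. Only 1 of its 6 neighbouring pairs overlapped. It rose by 2.06 from FLK1+ to FLK1+ 5h (SE 0.53, limma adjusted p = 0.0378), was lower in HE1 than in FLK1+ (log2 -1.66, limma adjusted p = 0.0451) and was 2.43 higher in SM than in HE1 (limma adjusted p = 0.0263). Of all genes, 0.483% were called higher in SM than in HE1. Tead4 read 0.15 and -0.37 in FLK1+ cells, 2.48 and 1.53 in FLK1+ 5h, 1.30 and 0.46 in d1 BC, and -3.95 and -2.51 in HP, and its difference of 2.11 in the first 5 h was not called (limma adjusted p = 0.0675). The Tead3 calls were fragile: the first had limma adjusted p = 0.0989 with slide as a block and up to 0.260 without FLK1+ 5h replicate 1, the HE1 difference 0.193 without FLK1+ replicate 1, and the SM difference 0.265 without HE1 replicate 2. Over 15 other settings the rise from FLK1+ to FLK1+ 5h ran from 1.58 to 2.16 and was called in 7. The HE1 difference ran from -2.69 to 0.056, turning with normexp background correction, and was called in 7. The SM difference was 0.61 or more, the lowest with normexp, and was called in 9.

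Wwtr1 varied least among the 10 genes, 4.51-fold between its highest and lowest of 13 group means. It read 0.11 and 0.58 in FLK1+ cells, 1.52 and 1.76 in FLK1+ 5h, and 0.50 and -0.03 in HP. None of the 8 steps compared (FLK1+ 5h, SM and HE1 against FLK1+, d1 BC against FLK1+ 5h, SM and HE2 against HE1, HP against HE2 and HP against SM) was called for it. Outside these it was lower in HE2 than in FLK1+ 5h (log2 -1.49, limma adjusted p = 0.0316). Over the same 13 means Tead2 ranged 7.27-fold and Tead4 37.6-fold, and for Tead3, whose lowest mean was not well above background on either array, no range is given.

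The targets Ankrd1, Ccn1 and Amotl2 rose within 5 h of culture of FLK1+ cells, Ankrd1 the most. Ankrd1 read -2.71 and -3.45 in FLK1+ cells, 4.14 and 3.69 in FLK1+ 5h, 5.43 and 6.07 in d1 BC, 4.96, 6.49 and 3.74 in SM, 2.12 and 3.40 in HE1, -3.25 and 1.00 in HE2, and -1.33 and 2.97 in HP. Both FLK1+ arrays lay below the 75th percentile and both FLK1+ 5h arrays above it, and its first HE2 array was not well above background. The rise from FLK1+ to FLK1+ 5h was 7.00 (SE 1.44, limma adjusted p = 0.0113). Over all 13 group means Ankrd1 spanned 526-fold, the widest range apart from Tead3, which is not ranked, and 5 of its 6 neighbouring pairs of untreated populations overlapped.

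Of the 10 genes, Tead3, Ccn1, Amotl2 and Ankrd1 were called higher in FLK1+ 5h than in FLK1+, against 2.86% of genes called higher. Ccn1 read 2.32 and 2.37 in FLK1+ cells and 5.90 and 5.37 in FLK1+ 5h, a rise of 3.29 (SE 0.80, limma adjusted p = 0.0290). Amotl2 read 2.40 and 2.26 before and 3.89 and 4.02 after, a rise of 1.62 (SE 0.42, limma adjusted p = 0.0405). Ccn2 read 1.82 and 1.85 before and 6.11 and 4.75 after, and this difference of 3.60 (SE 1.20) was not called (limma adjusted p = 0.126), though it was with slide as a block (limma adjusted p = 0.0149, against 1.9% of genes called higher). For all 4 target genes both FLK1+ 5h arrays lay above both FLK1+ arrays, as they did for 25.6% of genes. All 4 calls of this step were lost without either FLK1+ array or without FLK1+ 5h replicate 1, when limma adjusted p for Ankrd1 reached 0.164. Between FLK1+ 5h and d1 BC none of the 10 genes was called, against 1.72% of all genes, and at an unadjusted limma p under 0.05 the count was 0, against 11.3%.

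**Figure D2:**
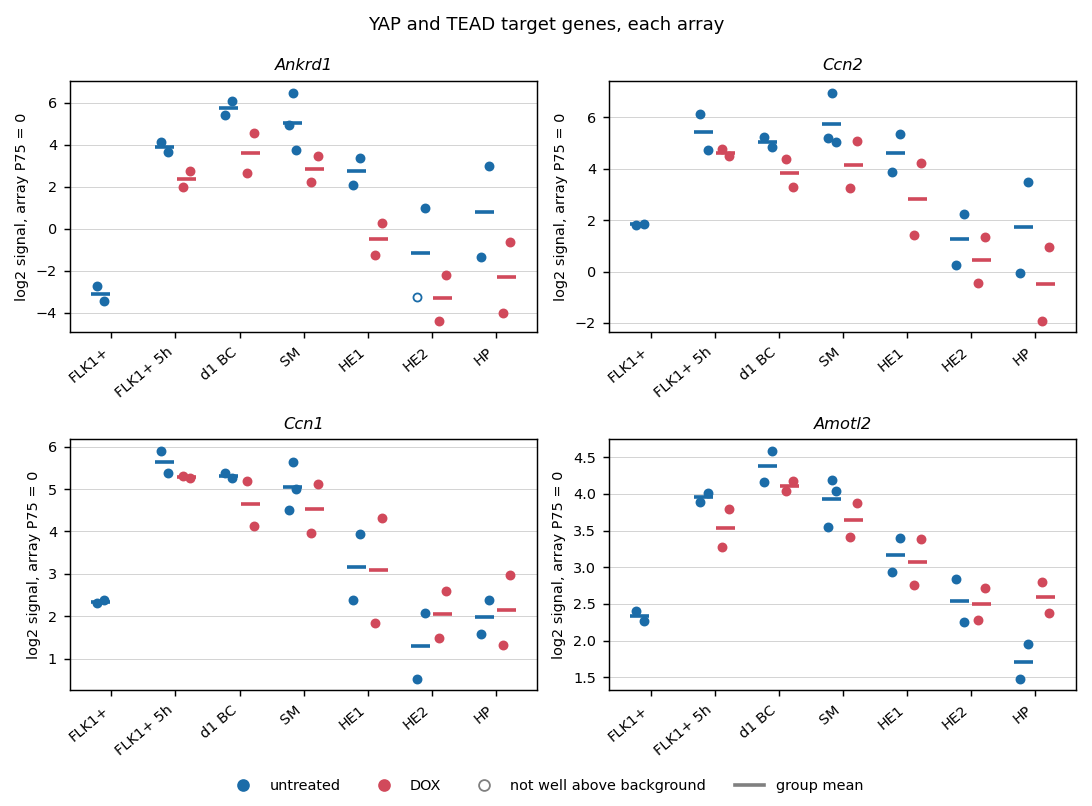
Log2 signal of Ccn1, Ccn2, Amotl2 and Ankrd1 on each array (array 75th percentile = 0), by population, untreated in blue and DOX in red, with group means as lines and open circles for probes not well above background. The 4 genes lie higher in FLK1+ 5h than in FLK1+ and are lower in HP than in SM, and the DOX points of Ankrd1 lie below its untreated points in the 4 populations from FLK1+ 5h to HE1.

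All 4 target genes were higher in SM cells than in the FLK1+ cells they came from. SM cells had Ankrd1 higher by 8.15 (SE 1.31, limma adjusted p = 5.29e-04), Ccn2 by 3.90 (limma adjusted p = 0.0312), Ccn1 by 2.71 (limma adjusted p = 0.0240) and Amotl2 by 1.60 (limma adjusted p = 0.0122), against 6.5% of genes called higher. Without either FLK1+ array 1 of the 5 calls of this step, counting Tead1, was left, that of Ankrd1. Replicate 2 of SM, with the high endothelial sum, also had the highest untreated SM level of Ankrd1, Ccn2, Ccn1 and Tead1. Without it the calls of Ankrd1 (log2 7.44) and Amotl2 (1.46) were left, and those of Ccn2 (3.28), Ccn1 (2.42) and Tead1 (2.19) were lost, with limma adjusted p of 0.0713 to 0.112. The part of endothelial cells in these values was not tested. HE1 cells had Ankrd1 higher than FLK1+ cells by 5.84 (limma adjusted p = 0.0120), against 7.79% of genes called higher and 5.23% lower, and the limma adjusted p reached 0.0884 without HE1 replicate 2. In bulk RNA of a sorted population, fewer cells of a type and less RNA per cell cannot be told apart.

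From HE1 to HE2 all 10 genes had a lower mean and 9 had no overlap between the arrays, against 15.7% of all genes. Ccn2, at 3.87 and 5.34 in HE1 and 0.25 and 2.25 in HE2, differed by -3.35 (SE 1.20, limma adjusted p = 0.213). Ankrd1 differed by -3.88 (limma adjusted p = 0.239), a value that includes the HE2 array not well above background and was -1.76 without it, and Tead1 differed by -2.64 (limma adjusted p = 0.0515). Replicates of HE1 and HE2 shared slides, and with slide as a block 5 of the 10 genes were called lower (Tead1, Yap1, Ccn1, Ccn2 and Ankrd1), against 4.82% of all genes. Ankrd1 and Ccn2 were higher in replicate 2 than in replicate 1 of HE1, HE2 and HP. From HE2 to HP none of the 10 was called, against 0.00395% of genes, and at an unadjusted limma p under 0.05 there was Tead3 (1.75 higher in HP), against 6.49%. This Tead3 value includes an HE2 array not well above background.

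In HP against SM cells 9 of the 10 genes were called lower, against 6.5% of all genes, and for all 10 no array overlapped, against 15.4%. Yap1 differed by -3.05 (SE 0.50, limma adjusted p = 4.19e-04), Tead1 by -3.51, Tead2 by -2.02, Tead3 by -2.34 and Tead4 by -2.80. Ccn2 differed by -4.02, Ccn1 by -3.07, Amotl2 by -2.21 and Ankrd1 by -4.24 (SE 1.31, limma adjusted p = 0.0466). Wwtr1 differed by -0.74 and was not called (limma adjusted p = 0.435). HP replicate 1 weighed on this count: without it the calls of Yap1 and Amotl2 were left, Ankrd1 differed by -2.09 and Ccn2 by -2.25. The Ankrd1 call lay close to the threshold and was kept in 8 of 27 such omissions, at -6.39 to -2.09. Without SM replicate 2 the calls of Ankrd1 (-3.53) and Ccn2 (-3.40) were lost and 7 were left.

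With DOX the mean level of Ankrd1 was lower in each of the 6 populations. In FLK1+ 5h it read 2.00 and 2.77 with DOX against 4.14 and 3.69 without, and in d1 BC 2.67 and 4.58 against 5.43 and 6.07. In SM it read 2.23 and 3.49 against 4.96, 6.49 and 3.74, and in HE1 -1.23 and 0.30 against 2.12 and 3.40. In HE2 it read -4.38 and -2.19 against -3.25 and 1.00, and in HP -4.00 and -0.60 against -1.33 and 2.97. The arrays did not overlap in the first 4 populations and overlapped in HE2 and HP. The log2 differences were -1.53 (SE 1.44), -2.13, -2.21 (SE 1.31), -3.22, -2.16 and -3.12, from FLK1+ 5h to HP. Ankrd1 had an unadjusted limma p of 0.037 in HE1 and 0.043 in HP, and no adjusted p below the threshold. Each size leaned on single arrays: leaving out 1 array gave -1.91 to -1.14 in FLK1+ 5h, -3.08 to -1.17 in d1 BC, -2.87 to -1.50 in SM and -3.99 to -2.45 in HE1. The span was wider in the CD41+ cells. The HE2 value was -4.29 without HE2 untreated replicate 1, the array not well above background, and -0.04 without HE2 untreated replicate 2. The HP value was -0.97 without HP untreated replicate 2 and -5.27 without replicate 1. On the 75th percentile scale the median DOX difference of all genes ran from 0.01 to 0.29.

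Averaged over the 6 populations, which use the same arrays, the DOX difference of Ankrd1 was -2.40 (SE 0.58, 95% interval -3.61 to -1.18), with an unadjusted limma p of 5.96e-04 and an adjusted p of 0.114, so it was not called. With slide as a block, which compares arrays of the same slide, it was called (log2 -2.38, SE 0.29, limma adjusted p = 0.00309, against 0.304% of genes called lower). Among the 11 DOX and untreated pairs on the same slide Ankrd1 was lower with DOX in 11, by -3.58 to -0.91 with a median of -2.77, or 6.80-fold. The pair of HE2 replicate 1 includes the untreated array not well above background, so its size and sign are uncertain. Of all genes, 0.332% were lower in all 11 pairs and 1.28% higher. Without HP untreated replicate 1 the average was -2.75 and was called (limma adjusted p = 0.047).

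Ccn2, the matrix gene also known as connective tissue growth factor, had lower means with DOX in each population too. With DOX it read 4.76 and 4.49 in FLK1+ 5h against 6.11 and 4.75, 4.39 and 3.30 in d1 BC against 5.24 and 4.86, 3.25 and 5.07 in SM against 5.21, 6.96 and 5.02, 1.43 and 4.22 in HE1 against 3.87 and 5.34, -0.46 and 1.36 in HE2 against 0.25 and 2.25, and -1.92 and 0.95 in HP against -0.05 and 3.48. Its arrays were apart in d1 BC alone and the groups overlapped elsewhere, including FLK1+ 5h, where the lower untreated array lay beneath the higher DOX array. The differences were -0.81 (SE 1.20), -1.20, -1.58, -1.78, -0.80 and -2.20 in the same order. Without HE2 untreated replicate 2 the HE2 difference was 0.20. Each of the other 5 differences kept its sign but moved by over 1.5 times: nearest to 0 it was -0.13 in FLK1+ 5h without untreated replicate 1, -0.66 in d1 BC without DOX replicate 2, -0.67 in SM and -0.38 in HE1 without DOX replicate 1, and -0.43 in HP without untreated replicate 2. The average was -1.39 (SE 0.48, limma adjusted p = 0.415). It was called with slide as a block (log2 -1.41, limma adjusted p = 0.00489). In the 11 pairs on a slide it was lower in 11, by -2.53 to -0.26 with a median of -1.56, or 2.94-fold.

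**Figure D3:**
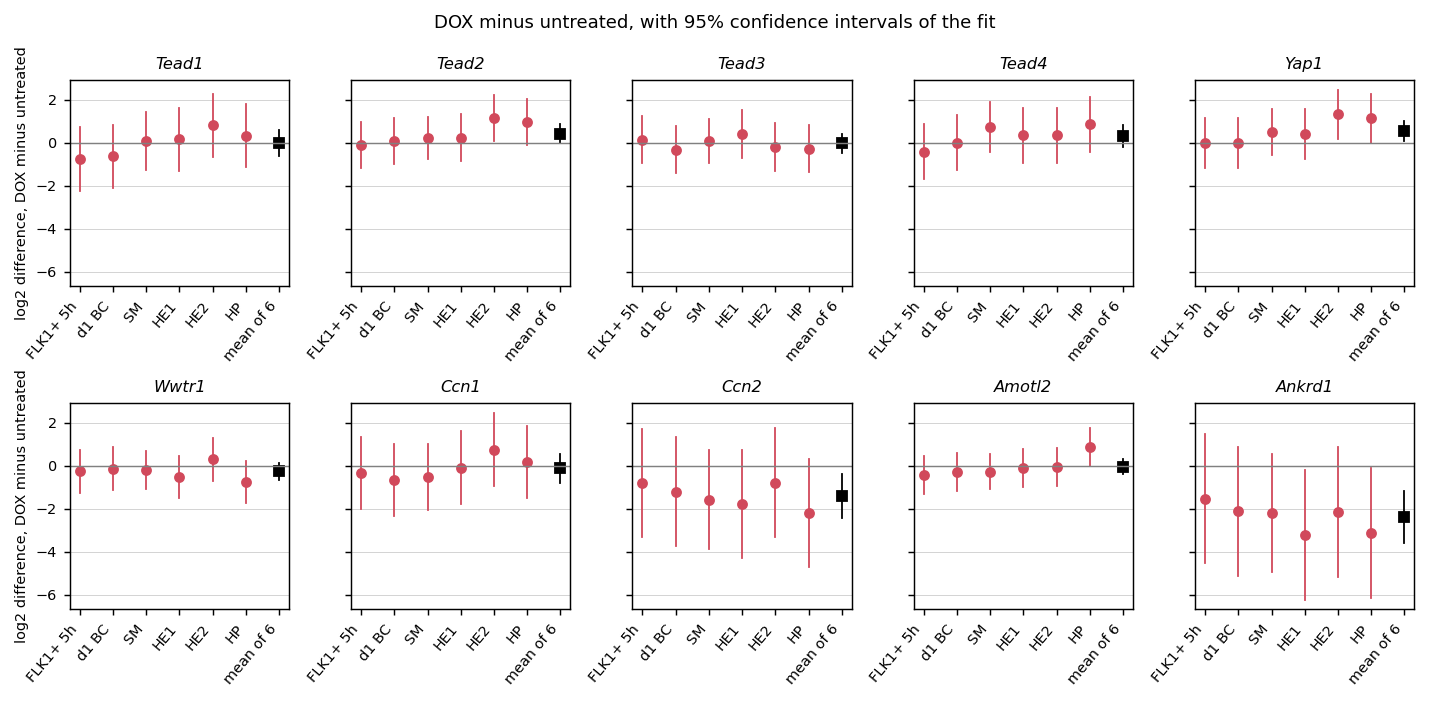
Log2 fold change with DOX of each of the 10 genes in 6 populations, from limma, with 95% confidence intervals as bars and the mean of the 6 in black. Ankrd1 and Ccn2 lie below 0 in all 6 populations, and each other gene has values on both sides of 0, those of Tead3 in HE2 resting on 1 of 4 arrays well above background. The Ankrd1 value in HE2 includes an untreated array not well above background.

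Ccn1 and Amotl2 had differences on both sides of 0. Ccn1, whose protein is close kin to that of Ccn2, read 5.30 and 5.27 with DOX in FLK1+ 5h against 5.90 and 5.37, and 1.49 and 2.60 in HE2 against 0.52 and 2.08. It was lower in 4 populations and higher in 2, with an average of -0.12 (interval -0.79 to 0.56). Amotl2 read 3.28 and 3.79 with DOX in FLK1+ 5h against 3.89 and 4.02, and 2.80 and 2.37 in HP against 1.48 and 1.95. Its differences ran from -0.42 in FLK1+ 5h to 0.87 in HP (SE 0.42), and its average was -0.04 (interval -0.40 to 0.32). On the same slide Amotl2 was lower with DOX in 8 of the 11 pairs and Ccn1 in 7.

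**Figure D4:**
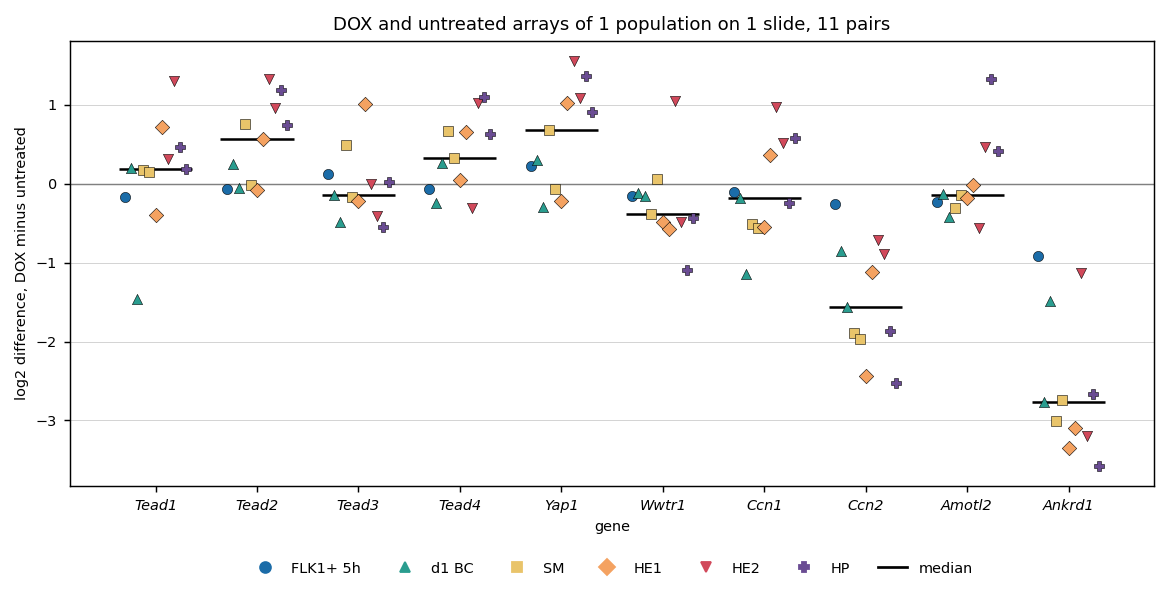
Log2 difference between DOX and untreated arrays of the same population on the same slide, for each of the 10 genes, with 11 pairs a gene. All 11 points lie below 0 for Ankrd1 and for Ccn2, and no other of the 10 genes has all points on the same side. The Ankrd1 point of HE2 replicate 1 includes an untreated array not well above background.

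The factor genes had DOX differences on both sides of 0, and the highest were those of Yap1 and Tead2 in CD41+ cells. Yap1 read 3.30 and 4.04 with DOX in HE2 against 1.75 and 2.94, and 2.60 and 3.29 in HP against 1.23 and 2.38, with no overlap in either population. Its differences were 1.32 in HE2 (SE 0.55, limma adjusted p = 0.523) and 1.14 in HP (SE 0.55, limma adjusted p = 0.983), and leaving out 1 array gave 0.72 to 1.92 and 0.56 to 1.72, the lowest in both without untreated replicate 1. Tead2 read 4.99 and 5.16 in HE2 against 3.67 and 4.20, and 3.93 and 4.41 in HP against 2.74 and 3.67, also with no overlap. Its differences were 1.14 (SE 0.51) and 0.97 (SE 0.51), with 0.51 in HP without untreated replicate 1, and a further Tead2 probe gave 0.30 and 0.75. Over the 6 populations the average was 0.56 for Yap1 (SE 0.22, limma adjusted p = 0.504), 0.43 for Tead2, 0.32 for Tead4, -0.27 for Wwtr1 and 0.00 for Tead1 (SE 0.28), and none is given for Tead3, which was not well above background on 3 of the 4 HE2 arrays. Tead1 read 1.17 and 1.94 in HE2 against 0.86 and 0.63, a difference of 0.81 that was 0.43 without DOX replicate 2 and that further probes gave as -0.34 and -0.32. In HP its probes disagreed as well, at 0.33 against 2.12 for the farthest of them. Wwtr1 read -0.60 and -0.47 in HP against 0.50 and -0.03, a difference of -0.77 (SE 0.47) that was -0.50 without untreated replicate 1.

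None of the 10 genes was called with DOX in any population, against 0.00421% of all genes in FLK1+ 5h cells, 0% in the d1 BC culture, 0.021% in SM cells, 0% in HE1 cells, 0.00415% in HE2 cells and 0.0398% in HP cells. In HE2 9 of the 10 were tested, Tead3 being dim. At an unadjusted limma p under 0.05 there were Ankrd1 in HE1 and in HP, Yap1 and Tead2 in HE2, and none in the other populations, against 5.51% of genes in FLK1+ 5h cells, 1.59% in the d1 BC culture, 2.77% in SM cells, 1.33% in HE1 cells, 9.43% in HE2 cells and 3.81% in HP cells. Arrays did not overlap, lower with DOX, for 4 of the genes in FLK1+ 5h (Tead1, Ccn1, Amotl2 and Ankrd1, against 15.2% of genes), 3 in d1 BC (Ccn1, Ccn2 and Ankrd1, against 9.63%), Ankrd1 in SM (6.06%) and in HE1 (8.17%), and Wwtr1 in HP (11.8%). They did not overlap, higher with DOX, for Tead1, Tead2 and Yap1 in HE2 (18.8%) and for Tead2, Yap1 and Amotl2 in HP (28.1%). For the average over populations 0.223% of 28284 genes were called, and at an unadjusted limma p under 0.05 there were Yap1, Ccn2 and Ankrd1, against 8.61%. The test of whether the DOX difference varied among the 6 populations passed for 0 genes, and among 150 pairwise comparisons of the 10 genes the lowest limma adjusted p was 0.440 (lowest unadjusted p 0.0434).

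Markers of other cell types were set beside these values. The summed level of 5 smooth muscle genes (array 75th percentile = 1) ran from 809 to 1727 in SM without DOX and 635 to 1292 with it, and from 908 to 1444 and 1053 to 1270 in d1 BC. It was 219 to 503 and 295 to 360 in HE1, and 44.2 to 45.9 and 19.4 to 51.0 in HE2. In HP it was 40.7 in replicate 1 and 213 in replicate 2 without DOX, and 59.8 and 183 with it, so the replicate with more Ankrd1 and Ccn2 also had more smooth muscle signal, while Myh11, which defines mature smooth muscle, was not well above background there. In untreated HE2 the sum was 45.9 in replicate 1 and 44.2 in replicate 2. In untreated HE1 it ran the other way from Ankrd1 and Ccn2, at 503 in replicate 1 and 219 in replicate 2. None of the 5 smooth muscle genes was called with DOX. For HE2 all 3 genes tested were lower (median -0.94). For HE1 it was 3 of 5 (median -0.60), and for SM cells 4 of 5 (median -0.29). The median was 0.08 for FLK1+ 5h, with all 4 tested higher, -0.03 for HP (2 of 3 lower) and -0.05 for d1 BC (3 of 5 lower). Over the 6 populations 4 of the 5 were lower, and their median average difference was -0.09. The sum of 5 markers listed for fibroblast feeder cells (Col1a1, Col1a2, Dcn, Lum and Postn) was 28.3 to 33.5 in d1 BC and 10.5 to 13.4 with DOX. It was 136 to 146 and 76.4 to 120 in SM, and 39.8 to 67.6 and 20.2 to 33.9 in HE1, with 0 of the 5 called. The sum was highest in SM, so it does not tell feeder cells from SM cells. The genes of the list did not move together: 3 were lower and 2 higher in d1 BC (median -0.01) and in SM (median -0.58), and 2 were lower and 3 higher in HE1 (median 0.49). Of 5 myeloid genes all were lower in the average over populations (median -0.96), 4 of 4 tested in HE2 (median -1.93), 4 of 5 in HP (median -2.51) and 2 of 2 tested in SM (median -1.27). Their sum was 102 in replicate 1 and 14.1 in replicate 2 of untreated HE2 against at most 11.8 with DOX, 22.2 to 23.2 in HP against 19.2 to 53.5, and 17.7 to 33.8 in SM against 10.3 to 10.8. In HE1 it was 43.9 to 63.7 against 20.9 to 46.1, so untreated HE1 lay above untreated HP. The myeloid gene Spi1 was not well above background on any SM or HE1 array, so there the sum does not measure myeloid cells alone. Of 5 erythroid genes all were lower with DOX in SM (median -1.01) and all higher in HP (median 0.88), and their sum in untreated SM was 354, 57.8 and 274 in replicates 1 to 3. The median average difference was 0.46 for 6 endothelial genes, -0.10 for 5 hematopoietic genes, -0.33 for 4 sorting markers and -0.34 for 4 pluripotency genes, and no gene of any of these lists was called with DOX. The part of these other cells in the differences of Ankrd1 and Ccn2 was not tested.

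The other genes of the pathway were counted in 2 lists, 25 genes of Hippo signalling and of TEAD cofactors and 20 further YAP and TEAD targets, which share 2 genes. From FLK1+ to FLK1+ 5h 2 of 23 pathway genes tested rose, the kinase gene Lats2 by 1.96 and Ptpn14, for a phosphatase that restrains YAP, by 1.73 (not called with slide as a block, limma adjusted p = 0.0806), and 6 of 19 targets rose, against 2.86% of genes, among them the matrix gene Thbs1 (6.31) and the receptor kinase gene Axl (3.56). The median of the target list was 1.73 against -0.20 over all genes. From FLK1+ 5h to d1 BC the TEAD cofactor gene Vgll2 (3.85) and the cadherin gene Fat4 (2.94) rose, calls that were lost with slide as a block (limma adjusted p = 0.128 and 0.0713), and of 19 targets Rbms3 (4.53, with slide as a block limma adjusted p = 0.103) and Crim1 (3.27) rose and Nt5e fell (-3.47), against 0.725% of genes called higher and 0.999% lower. In SM against FLK1+, 4 of 24 pathway genes were higher and 1 lower, against 2.97% of genes called lower, with Vgll2 at least 182-fold and Vgll3 at least 8.85-fold higher and Fat4 higher by 2.21 (with slide as a block limma adjusted p = 0.0614), and 11 of 19 targets were higher and none lower, against 6.5% called higher, Thbs1 by 8.02 and Rbms3 by 6.05. Thbs1 and Rbms3 were well above background on 1 of the 2 FLK1+ arrays, and Nt5e on 1 of the 2 d1 BC arrays. In HE1 against FLK1+ 2 of 22 pathway genes were higher, Vgll2 at least 27.6-fold and Fat4 by 3.15, and Amot was lower (-2.73). There 6 of 18 targets were higher, among them Thbs1 (6.04) and the matrix gene Ccdc80 (4.25). Of all genes 7.79% were called higher and 5.23% lower in this step, so the pathway counts lie near those shares. In SM against HE1 Tgfb2, a TGF beta ligand gene, was higher by 2.64, alone of 19 targets, against 0.483% of genes called higher.

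Genes of both lists were called lower in the CD41+ cells. In HE2 against HE1 4 of 22 pathway genes were called lower, among them Vgll2 (-5.54), Fat4 (-3.45) and Amotl1 (-2.14), and 5 of 17 targets, among them F3 (-4.95), which encodes tissue factor, Rbms3 (-4.75) and Ccdc80 (-4.22), against 2.09% of genes. With slide as a block 10 targets were called lower in this step, against 4.82%. Apart from Ccdc80 these named genes were well above background on 1 of the 2 HE2 arrays. In HP against SM it was 8 of 25 pathway genes, with Vgll3 at least 15.4-fold lower, Vgll2 at -4.84 and Dchs1, well above background on 1 of the 2 HP arrays, at -4.36, and 10 of 19 targets lower with 1 higher, against 6.5% of genes called lower and 3.41% higher, at a median of -2.17 against 0.15 over all genes, with Rbms3 (-5.46), F3 (-4.93) and Tgfb2 (-4.77) the lowest of the called targets. With DOX no gene of either list was called in any population. In the average over populations Axl was called lower (log2 -1.73, SE 0.29, limma adjusted p = 0.0143), against 0.209% of genes, the only call among 19 targets and 25 pathway genes tested. With slide as a block 2 targets were called lower, against 0.304% of genes. The median of the targets there was -0.41 against 0.14 over all genes. By population it lay below that of all genes in 5, down to -0.48 against 0.29 in HP, and above it in HE2, at 0.67 against 0.11.

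The genes whose 13 group means followed each of the 10 most closely were found among 16374 genes, as a description over means that share slides and scaling. For Ankrd1 these were Rusc2 (r = 0.963) and Myh9 (0.954), which encodes non-muscle myosin, and for Ccn2 Rps6ka4 (0.962) and Afap1 (0.957). Ccn1 was followed by Fhl2 (0.980) and Sema3b (0.973), Amotl2 by 4930429B21Rik (0.948) and Arhgap8 (0.946). Tead1 was followed by Mcc (0.980) and Prag1 (0.974), Tead2 by Xrcc5 (0.959) and Fzd1 (0.958), Tead3 by Kctd11 (0.989) and the cardiac actin gene Actc1 (0.976), and Tead4 by Mthfsd (0.982) and Chst8 (0.981). Yap1 was followed by Shc2 (0.986) and Eml1 (0.982) and Wwtr1 by Klf6 (0.963) and Rassf1 (0.940). Among the 10 themselves, r was 0.94 between Tead2 and Yap1, 0.91 between Tead1 and Ccn1, 0.91 between Ccn2 and Ankrd1, and 0.26 between Tead2 and Ankrd1.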

How the data were processed

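RNA of 27 samples was hybridised to one-colour Agilent mouse arrays, and the deposited spot values are intensities, which Agilent Feature Extraction gave the authors after background subtraction, with no scaling between arrays. An alternative started from the deposited median spot and background intensities. The authors' processed values are log2 values normalized between arrays and were used as an alternative only. Limma is named by the authors.

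Of 62976 spots, 55681 probes were not controls, and RefSeq accessions gave symbols for 26582. For each gene the probe with the highest mean was kept. Log2 signals minus the 75th percentile of the array were fitted with 1 mean per group over all 27 arrays (lmFit and eBayes, limma 3.58.1, R 4.3.3, 14 residual and 4.23 prior degrees of freedom). A gene entered a comparison when every array of at least 1 group compared had its probe well above background. Calls needed 2-fold and a p of under 0.05 after Benjamini-Hochberg adjustment over all genes. Intervals are 95% intervals. The main fit was tested on simulated data with 200 changed genes, in the comparison of SM with and without DOX only. The alternative fits were not tested in this way. Figures were drawn with matplotlib 3.10.9.

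The text names the 10 genes, the 3 called genes of the largest change per list and comparison, and the 2 genes most alike in group means; other names were chosen after their values were seen, and 1 gene that the rule names is not reported here. The genes and lists were chosen with earlier results of these data known. Alternatives were normexp, quantile and median scaling, the authors' values, the filter, the probe rule, slide, scan day and replicate number as blocks, mean-variance trend, array weights, the groups fitted, and leaving out each array. No array was a copy of another (0 identical pairs). The precision is limited by the 2 or 3 arrays per group.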

Additional observations from a re-analysis of the deposited data

How the results depend on the processing

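Over the average of DOX differences, 0 of the 10 genes were called, and 1 with normexp background correction, 1 with the replicate block, 2 with slide as a fixed block, 2 with slide as a random block and 2 with scan day as a fixed block. Leaving out arrays gave 0 to 1. Of the steps between untreated populations 22 were called, against 12 with median scaling, 14 with no filter on dim probes, 34 with slide as a random block and 10 with only the groups compared. Leaving out arrays gave 11 to 22, with 11 without either FLK1+ array and 13 without HP untreated replicate 1. The cause was not tested. Under all alternatives 0 of the 10 were called with DOX within a population and 0 in the test of differences among populations. Median scaling turned Amotl2 (-0.19), Ccn1 (-0.20) and Wwtr1 (-0.24) in HE1 against FLK1+ and Wwtr1 in SM against FLK1+ (-0.12), and normexp turned Tead3 in HE1 against FLK1+ (0.056). Leaving out arrays turned some uncalled values: Ankrd1 in HP against HE2 ran from -0.20 to 4.10 (the last against an array not well above background), Ccn1 there from -0.099 to 1.47 and Yap1 there from -1.14 to 0.060, and with DOX Ccn1 in HE2 from -0.039 to 1.53, Ccn1 in SM from -1.10 to 0.066, Ccn2 in HE2 from -1.80 to 0.20 and Tead1 in d1 BC from -1.69 to 0.43. Under median scaling the median DOX difference of all genes ran from -0.68 in FLK1+ 5h to 0.63 in HE2, where it was 0.01 and 0.11 on the 75th percentile scale, and the average of Ankrd1 was -2.38.

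The replicate block gave 21 called steps, 20 shared with the 22, and moved no DOX call within a population. Same-numbered arrays deviated together in 5 populations (r from 0.260 to 0.609) but not in FLK1+ 5h (r = -0.15), and the labels do not say that a number marks a pair. With the FLK1+ 5h numbers crossed, an alternative added once the data had been seen, the counts were 19 steps and 1 average.

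Signal over background limits the dim probes: Tead3 was well above background on 1 of the 4 HE2 arrays. DOX cannot be told apart from dnFOS.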
